A study of Mus musculus with 4 samples.

Results

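Red cells and reticulocytes in suspensions of mouse liver cells were described through 1384 gene-poor barcodes rich in adult globin RNA, out of 20592 barcodes in 4 single-cell RNA libraries. The barcodes were chosen by their globin share and their number of genes. UMIs (unique molecular identifiers, 1 per captured RNA molecule) of Hba-a1, Hba-a2, Hbb-bt and Hbb-bs had to make up at least 20% of all UMIs of the barcode, and fewer than 700 genes had to be detected in it. Both the globin share and the number of genes are therefore given as descriptions and not as findings. The 4 libraries were S/S genotype, 3 h after 500 ng TNF; A/A genotype, 3 h after 500 ng TNF; S/S genotype at baseline; and A/A genotype at baseline. All mice were 2 months old, and each library pooled the liver cells of 2 mice after perfusion, enrichment of non-parenchymal cells and a sort that enriched macrophages. The labels name the genotypes only as A/A and S/S and do not state which globin alleles the mice carry, so a UMI here is one assigned to the named mouse gene. Each group was 1 library, so no test between groups was possible, and the intervals given are exact 95% intervals that cover counting error only.

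A red cell loses its nucleus as it leaves the erythroblast stage and enters the blood as a reticulocyte, which still holds ribosomes, mitochondria and messenger RNA. The reticulocyte then clears its organelles by ubiquitination and autophagy, and its RNA comes to be dominated by the alpha and beta globin messages that encode the chains of haemoglobin. The liver filters ageing and damaged red cells from the blood, and its resident macrophages take them up. TNF is an inflammatory cytokine that acts on many liver cells through NF-kB.

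The adult globin genes lie in a pair of clusters. The 130 bases upstream of the annotated transcription start are shown for the adult alpha genes, the embryonic alpha-class gene Hba-x and the adult beta genes, because the results below turn on the balance between these genes. The sequences are from RefSeq on GRCm38.p6, whereas the UMIs were counted on mm39, so these coordinates serve for the sequences alone. Capitals mark the motif CACCC (a site type of Krüppel-like factors), the motif CCAAT, the motif GATAA (of GATA factors) and the motif TATAA (the TATA box), each on either strand.
Hba-a1 (chr11:32283542-32283671, plus strand): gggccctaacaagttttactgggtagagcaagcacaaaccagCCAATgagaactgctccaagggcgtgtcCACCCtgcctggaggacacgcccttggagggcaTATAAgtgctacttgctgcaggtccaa
Hba-a2 (chr11:32296362-32296491, plus strand): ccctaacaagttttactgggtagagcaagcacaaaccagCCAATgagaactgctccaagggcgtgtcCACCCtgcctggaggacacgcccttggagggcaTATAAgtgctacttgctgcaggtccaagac
Hba-x (chr11:32276470-32276599, plus strand): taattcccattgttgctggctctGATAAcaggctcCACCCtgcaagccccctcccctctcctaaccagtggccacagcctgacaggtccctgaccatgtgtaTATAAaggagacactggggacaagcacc
Hbb-bt (chr7:103813924-103814053, minus strand): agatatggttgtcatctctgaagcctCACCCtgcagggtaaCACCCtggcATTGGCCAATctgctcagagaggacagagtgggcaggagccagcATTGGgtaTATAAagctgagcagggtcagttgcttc
Hbb-bs (chr7:103827929-103828058, minus strand): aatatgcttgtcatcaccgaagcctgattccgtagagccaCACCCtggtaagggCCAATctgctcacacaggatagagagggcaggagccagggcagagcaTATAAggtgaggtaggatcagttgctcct
All 5 windows hold CACCC and TATAA, motifs found in 33.7% and 12.7% of 32851 RefSeq windows of the same length. CCAAT is in the 4 adult windows and in 22.4% of all windows, and GATAA is in the Hba-x window alone and in 11.4% of all windows. The windows of Hba-a1 and Hba-a2 are identical over the 127 bases that they share. Their transcripts are identical at 537 of 538 aligned bases, so the split of UMIs between these genes is uncertain, and the genes are summed as alpha globin below. Hbb-bt and Hbb-bs transcripts are identical at 93.6% of 609 aligned positions, and their split carries the same reservation.

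The selected barcodes were found mainly in the S/S libraries. They numbered 796 of 5848 barcodes in the S/S TNF library (13.6%, interval 12.7 to 14.5%) and 37 of 6531 in the A/A TNF library (0.567%, 0.399 to 0.780%). At baseline they numbered 531 of 4983 barcodes in the S/S library (10.7%, 9.81 to 11.5%) and 20 of 3230 in the A/A library (0.619%, 0.379 to 0.955%). The S/S share was thus 24.0 times the A/A share after TNF (17.3 to 34.4) and 17.2 times the A/A share at baseline (11.03 to 28.4). Each library was a single sort of pooled cells, so the sort, the mice and the genotype cannot be told apart in these shares.

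The TNF libraries hold no barcode with fewer than 250 genes or more than 20% mitochondrial UMIs, whereas the baseline libraries hold both. Under the same limits in all libraries, the baseline numbers were 315 of 4515 barcodes in the S/S library (6.98%) and 11 of 2879 in the A/A library (0.382%). The ratio of the S/S TNF share to the S/S baseline share was 1.28 (1.14 to 1.43) over all barcodes and 1.95 (1.71 to 2.23) under equal limits. In A/A mice the corresponding ratio was 0.915 (0.517 to 1.66) over all barcodes and 1.48 (0.741 to 3.22) under equal limits. Both A/A intervals include 1, and all of these intervals cover counting error only, not differences between mice. The headers name Cell Ranger 6.1.2 for the TNF libraries and 7.1.0 for the baseline libraries, so the effects of software version and of treatment cannot be told apart in any comparison of TNF with baseline.

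The globin threshold fell in a sparse range, as the plot of globin share against genes shows. Among barcodes under 700 genes in the S/S TNF library, 7 had 20 to 25% globin and 6 had 15 to 20%. In the S/S baseline library, 1 barcode lay in each of these ranges. The gene threshold cut a continuous tail: 25 S/S TNF barcodes with at least 20% globin had 600 to 700 genes and 17 had 700 to 800, and the S/S baseline numbers were 20 and 6. The gene-rich globin barcodes beyond the threshold, at least 20% globin and 700 or more genes, numbered 95 in S/S TNF, 17 in A/A TNF, 44 in S/S baseline and 3 in A/A baseline.

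**Figure D1:**
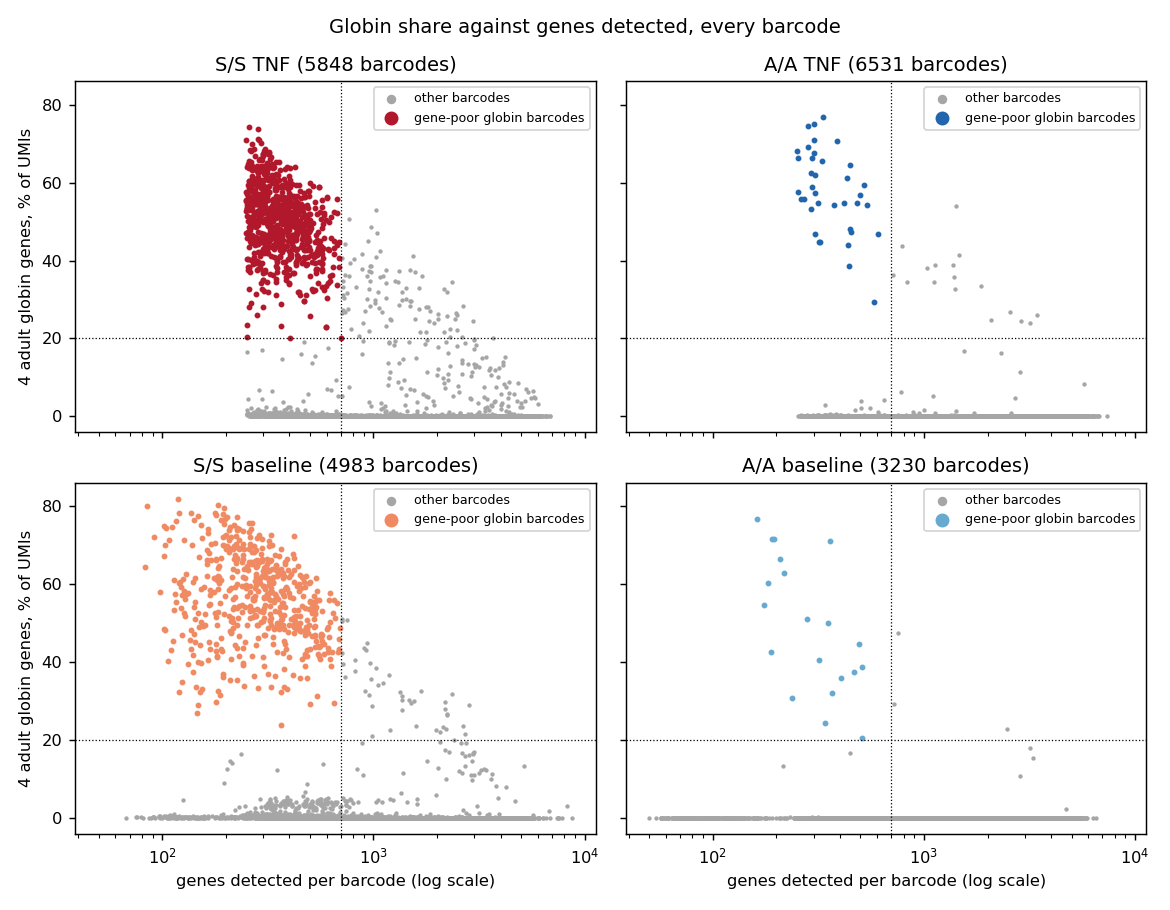
Share of UMIs from the 4 adult globin genes (percent, vertical axis) against genes detected (log scale, horizontal axis) for every barcode of each library, with the chosen barcodes coloured and dotted lines at 20% and 700 genes. The S/S TNF and S/S baseline panels hold 796 and 531 coloured barcodes and the A/A TNF and A/A baseline panels 37 and 20, and few points lie just under 20%.

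Markers of red cells that the choice did not use went with the label, while Hemgn and Tfrc, of earlier stages, were scarce. Levels are counts per 1000000 UMIs outside the 4 globin genes (CPM), summed over the barcodes of a library. Alas2, the first enzyme of haem synthesis in red cells, stood at 9791 in S/S TNF, 9029 in A/A TNF, 9103 in S/S baseline and 7807 in A/A baseline. In barcodes with under 5% globin of the same libraries it stood at 13.2, 2.66, 13.5 and 3.40. At least 1 Alas2 UMI was seen in 99.7% of the selected S/S TNF barcodes, at a median of 5460.5 UMIs per barcode, and in 5.74% of the low-globin barcodes, at a median of 6342. Bpgm, which makes the 2,3-bisphosphoglycerate that tunes oxygen release, was 767 times its level in low-globin barcodes of the S/S TNF library.

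Slc4a1, the band 3 anion exchanger, stood at 2894 in S/S TNF, 3346 in A/A TNF, 1116 in S/S baseline and 1980 in A/A baseline. Its level was higher after TNF than at baseline in either genotype. Hemgn, a nuclear factor of erythroblasts, stood at 23.3 in S/S TNF, 20.6 in A/A TNF, 34.8 in S/S baseline and 0 in A/A baseline. In low-globin barcodes Hemgn stood at 3.22, 0.547, 8.62 and 0.431 in the same order. In the gene-rich globin barcodes of the S/S TNF and S/S baseline libraries it stood at 763 and 1165. Tfrc, the transferrin receptor that reticulocytes shed, stood at 61.1 and 40.2 in the selected S/S TNF and S/S baseline barcodes, against 397 and 649 in the gene-rich ones. The transcripts of mature stages were thus abundant, and those of Hemgn and Tfrc were scarce.

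Markers of other cell types were present at low levels. In the S/S TNF library the 12 neutrophil markers summed to 913 CPM in the selected barcodes and 22336 in low-globin barcodes, with Ly6g and Ltf at 0. The 20 hepatocyte markers summed to 1196 and 3117, the 15 Kupffer cell or macrophage markers to 221 and 3101 with Cd163 at 0, and the 11 B or plasma cell markers to 501 and 9614 with Pax5 and Mzb1 at 0. In the S/S baseline library the B or plasma cell markers summed to 1936 in the selected barcodes and 15644 in low-globin barcodes, and the 12 T cell markers to 261 and 2006. Over the 11 marker lists, the selected barcodes ranged from 19.3 to 1196 CPM in S/S TNF, 0 to 1441 in A/A TNF, 17.4 to 1936 in S/S baseline and 0 to 762 in A/A baseline. One marker list reached 2% of UMIs outside globin in 13 S/S TNF barcodes and 3 S/S baseline barcodes, and in none of the A/A barcodes.

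Globin RNA also reached barcodes of other cells. Among barcodes with at least 3 T cell marker UMIs and under 20% globin, 96.2% in S/S TNF, 20.1% in A/A TNF, 94.2% in S/S baseline and 10.3% in A/A baseline had a globin UMI. The median globin share of such a barcode was 0.0256% in S/S TNF and 0.0334% in S/S baseline, far under the 20% limit. The selected barcodes held 81.2% of all globin UMIs of the S/S TNF library, 59.9% in A/A TNF, 82.8% in S/S baseline and 66.6% in A/A baseline. Cell barcodes present in more than 1 library made up 1 of the selected S/S TNF barcodes and 2 of the S/S baseline ones.

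UMIs per barcode were lowest at baseline in S/S. The median number of UMIs per selected barcode was 5460.5 in S/S TNF, 6045 in A/A TNF, 2994 in S/S baseline and 4661.5 in A/A baseline. Outside globin the medians were 2631.5 in S/S TNF, 2548 in A/A TNF, 1221 in S/S baseline and 2450.5 in A/A baseline. The median number of genes was 347 in S/S TNF, 319 in A/A TNF, 282 in S/S baseline and 297.5 in A/A baseline. Under equal limits the order of the gene medians turned, with 347 in S/S TNF, 319 in A/A TNF, 365 in S/S baseline and 368 in A/A baseline. Also under equal limits the S/S TNF median of all UMIs was 1.42 times the S/S baseline median, against 1.82 times over all barcodes. The UMI total of the library differed in the same direction within S/S, at 54999906 in S/S TNF and 30724027 in S/S baseline. The A/A baseline library held fewer UMIs, 21088801, yet its selected barcodes had higher median UMIs than those of S/S baseline. The part of library depth was not tested.

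Ribosomal and mitochondrial RNA took up different parts of the remainder. Rn18s-rs5, the ribosomal RNA gene of the reference, held 40.7% of UMIs outside globin in S/S TNF, 43.4% in A/A TNF, 26.2% in S/S baseline and 50.4% in A/A baseline. Mitochondrial genes held 4.97% in S/S TNF, 4.70% in A/A TNF, 8.92% in S/S baseline and 4.08% in A/A baseline. The S/S baseline library stood apart in both. The same gene also varied in low-globin barcodes, at 132188 CPM in S/S TNF, 143167 in A/A TNF, 58488 in S/S baseline and 166666 in A/A baseline. A level scaled to all UMIs outside globin therefore moves with the ribosomal share, and each comparison below is read beside the median of all genes.

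The balance of globin genes differed between libraries. Hba-a1 gave 72.0% of globin UMIs in S/S TNF (71.9 to 72.0%), 62.0% in A/A TNF (61.7 to 62.3%), 58.5% in S/S baseline (58.4 to 58.6%) and 54.0% in A/A baseline (53.5 to 54.4%). Hbb-bt gave 24.2% in S/S TNF, 34.1% in A/A TNF, 38.4% in S/S baseline and 41.4% in A/A baseline. Hba-a2 stayed between 1.96% and 2.79%, and Hbb-bs between 0.913% and 2.67%. Alpha globin, as the sum of Hba-a1 and Hba-a2, was 74.8% of globin UMIs in S/S TNF, 64.4% in A/A TNF, 60.7% in S/S baseline and 55.9% in A/A baseline. The alpha to beta ratio of UMIs was 2.96 in S/S TNF, 1.81 in A/A TNF, 1.54 in S/S baseline and 1.27 in A/A baseline. The order of the 4 libraries was the same in the medians over single barcodes, at 3.01 in S/S TNF, 1.85 in A/A TNF, 1.49 in S/S baseline and 1.26 in A/A baseline.

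The spread between barcodes was wide relative to the steps among A/A TNF, S/S baseline and A/A baseline. The middle 50% of S/S TNF barcodes had alpha to beta ratios of 2.29 to 3.69, and the middle 50% of S/S baseline barcodes had 1.08 to 1.87. In A/A TNF the quartiles were 1.32 and 2.19, and in A/A baseline 0.945 and 1.36. The S/S TNF quartiles did not overlap those of any other library, while the other 3 ranges overlapped one another. Gene-rich globin barcodes had higher ratios than the selected ones in each library, at 3.54 in S/S TNF, 2.66 in A/A TNF, 2.16 in S/S baseline and 1.97 in A/A baseline. In low-globin barcodes the ratio was 2.62 in S/S TNF, 2.81 in A/A TNF, 2.32 in S/S baseline and 0.631 in A/A baseline. It was thus higher after TNF in both genotypes there too, but highest in A/A TNF. The A/A values rest on 2780 globin UMIs after TNF and 845 at baseline. Among T cell marker barcodes A/A TNF was again highest, at 3.29 against 2.16 in S/S TNF. Among B or plasma cell marker barcodes S/S TNF was highest, at 2.95 against 2.17 in A/A TNF. Levels of different genes in UMIs are counts of captured 3′ ends, and a ratio between genes can include a difference in capture.

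The alpha share was also higher in barcodes with more genes. In S/S TNF the alpha share of globin was 71.2% at 250 to 300 genes, 74.4% at 300 to 400, 76.9% at 400 to 500 and 78.2% at 500 to 700. In S/S baseline it was 54.6% under 250 genes, 59.5% at 250 to 300, 61.2% at 300 to 400, 64.5% at 400 to 500 and 66.4% at 500 to 700. The share was higher in S/S TNF than in S/S baseline in each of the 4 bins that both libraries hold. The difference over all barcodes was 14.1 percentage points, and it was 11.9 under equal limits.

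Other transcripts moved along the same axis, as the plot by genes detected shows. The summed level of 25 antioxidant and enzyme genes was 15480 CPM at 250 to 300 genes and 32842 at 500 to 700 genes in S/S TNF, and 9814 and 38970 in the same bins of S/S baseline. Prdx2, a peroxidase abundant in red cells, went with it, at 1304 and 3584 in the same S/S TNF bins and 501 and 4076 in the same S/S baseline bins. The 30 membrane and skeleton genes stood at 12974 and 18172 in these bins of S/S TNF, and at 6881 and 14870 in S/S baseline. Ribosomal RNA ran the other way, at 482604 and 345542 CPM in S/S TNF and 287903 and 174058 in S/S baseline. Alas2 was also lower in the bin with more genes, at 10457 and 8338 in S/S TNF and 10375 and 8347 in S/S baseline. The scale of all these levels includes ribosomal RNA, so they move with its share. These are descriptions, because a barcode with more genes also has more UMIs and the choice of barcodes used the number of genes.

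**Figure D2:**
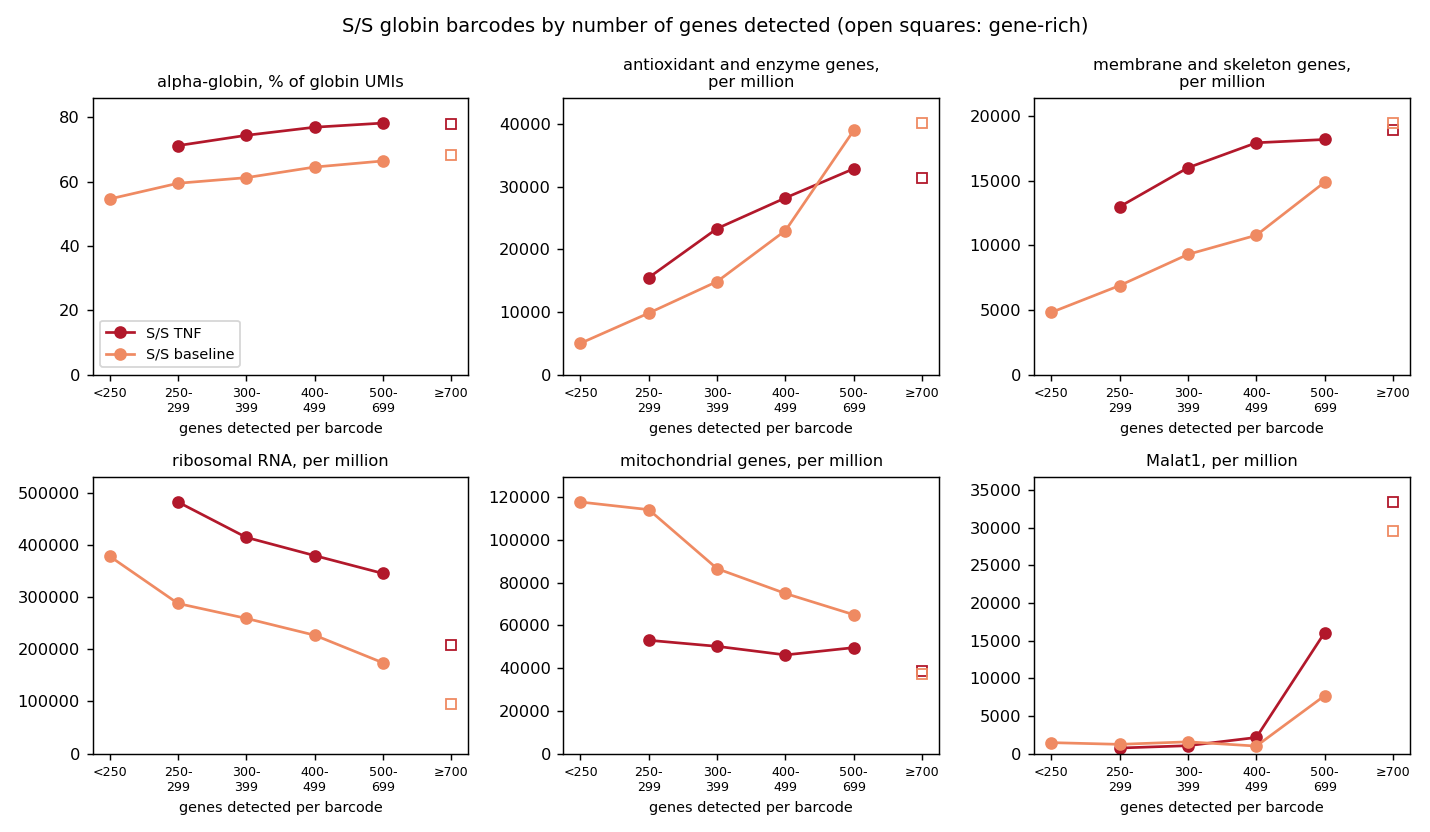
Pooled values of S/S globin barcodes (S/S TNF dark red, S/S baseline orange) in bins of genes detected per barcode: alpha share of globin UMIs in percent, and 5 levels in CPM (UMIs per 1000000 UMIs outside globin); filled points are the selected barcodes and open squares the gene-rich ones. Alpha globin, antioxidant and membrane levels are higher and ribosomal RNA is lower in bins with more genes, and Malat1 is at 16045 CPM in S/S TNF barcodes of 500 to 700 genes against 2130 or less in the lower bins.

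Malat1, a long non-coding RNA kept in the nucleus, was confined to few of the selected barcodes. Its median was 0 UMIs in S/S TNF barcodes and 1 in S/S baseline barcodes, and the 79 S/S TNF barcodes with most of it held 96.1% of its UMIs. It made up at least 1% of UMIs outside globin in 33 S/S TNF barcodes, 1 A/A TNF barcode, 7 S/S baseline barcodes and 0 A/A baseline barcodes. The median number of genes in these 33 was 468, against 346 in the other S/S TNF barcodes.

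Embryonic globins were detected and were unevenly spread. Hba-x, the zeta-like alpha-class gene of the early embryo, gave 2.04% of alpha-class UMIs in S/S TNF (2.02 to 2.06%), 0.958% in A/A TNF (0.894 to 1.03%), 1.30% in S/S baseline (1.27 to 1.33%) and 1.35% in A/A baseline. Here the class is the gene itself plus the adult genes of its kind. Hbb-bh1, an embryonic beta-class gene, gave 1.39% of beta-class UMIs in S/S TNF, 0.206% in A/A TNF, 0.933% in S/S baseline and 0.527% in A/A baseline. Both shares were highest in S/S TNF, but the order depended on the denominator. In CPM, Hbb-bh1 stood at 3472 in S/S TNF, 988 in A/A TNF, 4661 in S/S baseline and 1980 in A/A baseline, so it was lower after TNF in both genotypes. Hba-x stood at 15205 in S/S TNF, 8360 in A/A TNF, 10102 in S/S baseline and 6513 in A/A baseline, higher after TNF in both. A single barcode held 171 of the 342 Hba-x UMIs of A/A baseline, and Hbb-bh1 had 96 UMIs in A/A TNF and 104 in A/A baseline. These CPM levels are over all selected barcodes, not under equal limits. Under equal limits the median log2 ratio of all genes in S/S TNF over S/S baseline was also negative, at -0.34. No such median was computed for A/A TNF over A/A baseline.

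The averages came from a minority of barcodes. In S/S TNF the median barcode had 5 Hba-x UMIs and the highest had 1072, and the 79 barcodes with most Hba-x held 66.4% of its UMIs. For Hbb-bh1 the median was 1 UMI, the highest 1025, and the top 79 barcodes held 92.1%. The typical barcode had fewer Hbb-bh1 UMIs in S/S than in A/A, with medians of 1 in S/S TNF, 2 in A/A TNF, 2 in S/S baseline and 5 in A/A baseline. Median UMIs of adult Hbb-bt were also lower in S/S. They were 678 in S/S TNF, 1206 in A/A TNF, 697 in S/S baseline and 894.5 in A/A baseline. Neither these medians nor the shares of barcodes that follow are scaled to depth. At least 1 Hbb-bh1 UMI was seen in 64.6% of S/S TNF, 91.9% of A/A TNF, 88.5% of S/S baseline and 100% of A/A baseline barcodes. In S/S baseline the 53 top barcodes held 83.2% of Hba-x and 68.0% of Hbb-bh1. For Alas2 the same numbers of top barcodes held only 18.5% in S/S TNF and 25.1% in S/S baseline.

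At least 20 Hba-x UMIs were counted in 232 of 796 S/S TNF barcodes (29.1%, 26.0 to 32.4%), 9 of 37 A/A TNF barcodes (24.3%, 11.8 to 41.2%), 56 of 531 S/S baseline barcodes (10.5%, 8.07 to 13.5%) and 5 of 20 A/A baseline barcodes (25%, 8.66 to 49.1%). These intervals count barcodes within 1 library each, so they do not test a difference between groups. A fixed number of UMIs is easier to reach in deeper barcodes, and the median barcode had 5460.5 UMIs in S/S TNF and 2994 in S/S baseline. Each barcode was also thinned to 500 UMIs outside globin under equal limits. An Hba-x UMI was then seen in 60.5% of S/S TNF barcodes (57.0 to 63.9%) and 58.1% of S/S baseline barcodes (52.4 to 63.6%). Without thinning, the values were 85.6% and 78.4%. At least 20 Hbb-bh1 UMIs were counted in 25 S/S TNF barcodes (3.14%, 2.04 to 4.60%), 0 A/A TNF barcodes (up to 9.49%), 8 S/S baseline barcodes (1.51%, 0.653 to 2.95%) and 0 A/A baseline barcodes (up to 16.8%), so a share like that of S/S was not detectable in A/A with so few barcodes. Of the 25 S/S TNF barcodes high in Hbb-bh1, 10 were also high in Hba-x. Hbb-y, another embryonic beta-class gene, had 448 UMIs in S/S TNF and 122 in S/S baseline, and reached 20 UMIs in 11 and 2 barcodes. Whether the high barcodes came from 1 or both of the pooled mice cannot be told apart.

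**Figure D3:**
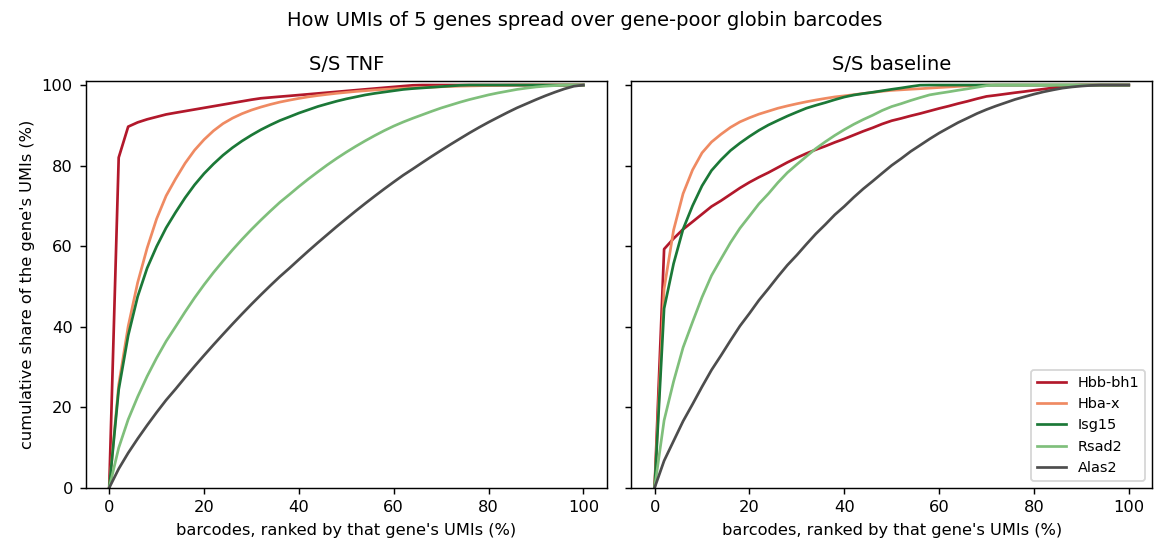
Cumulative share of the UMIs of Hbb-bh1, Hba-x, Isg15, Rsad2 and Alas2 (percent, vertical axis) over the selected barcodes ranked by the UMIs of that gene (percent of barcodes, horizontal axis) in S/S TNF and S/S baseline. The Hbb-bh1 and Hba-x curves climb steeply, with 92.1% and 66.4% of UMIs in the top 79 of 796 S/S TNF barcodes, and the Alas2 curve is the lowest in both panels.

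The 25 genes with the highest levels summed over both S/S libraries included chaperone, ferritin and ubiquitin genes, whose rank differed between libraries. Outside globin, Rn18s-rs5 was the highest of them in each library. Hsp90ab1, a cytosolic chaperone, stood at 34163 CPM in S/S TNF, 25696 in A/A TNF, 24758 in S/S baseline and 27974 in A/A baseline. In S/S baseline it stood below Ftl1, at 31138, and Cmss1, at 25163. The Hsp90ab1 level in low-globin barcodes was between 967 and 1217. Hsp90aa1, its inducible paralog, stood at 26054 in S/S TNF, 20219 in A/A TNF, 14361 in S/S baseline and 19538 in A/A baseline. Ubb, a polyubiquitin gene, stood at 20387 in S/S TNF, 31997 in A/A TNF, 19588 in S/S baseline and 5808 in A/A baseline. Oaz1, which restrains polyamine synthesis, stood at 10248 in S/S TNF, 7979 in A/A TNF, 12412 in S/S baseline and 6265 in A/A baseline.

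Mkrn1, a ubiquitin ligase, ranged from 5884 in A/A baseline to 9811 in A/A TNF. Gpx1, a glutathione peroxidase, stood at 8336 in S/S TNF, 10449 in A/A TNF, 5397 in S/S baseline and 5199 in A/A baseline. Car2, a carbonic anhydrase, ranged from 4761 to 8390, Prxl2a from 3466 to 6938, Ube2b, a ubiquitin-conjugating enzyme, from 4194 to 5540, and Tpt1 from 4418 to 13366. Tent5c, a poly(A) polymerase, stood at 5723 in S/S TNF, 7217 in A/A TNF, 2780 in S/S baseline and 5408 in A/A baseline, and Pabpc1, the cytoplasmic poly(A) binding protein, at 5651, 7999, 2910 and 6036 in the same order. Both were lowest in S/S baseline. Lars2, a mitochondrial leucyl-tRNA synthetase, ranged from 3455 to 6189 and Mir6236 from 4724 to 18205. Both were highest in A/A baseline, the library with the highest ribosomal share.

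Interferon-stimulated transcripts were among these 25 genes before and after TNF. Rsad2, which encodes the antiviral protein viperin, stood at 4870 CPM in S/S TNF, 2811 in A/A TNF, 3739 in S/S baseline and 3732 in A/A baseline, against 22.4 to 55.0 in low-globin barcodes. Isg15, a ubiquitin-like modifier, stood at 4317 in S/S TNF, 2234 in A/A TNF, 4054 in S/S baseline and 3123 in A/A baseline, against 56.7 to 143 in low-globin barcodes. Isg15 was uneven, with 59.6% of its UMIs in the top 79 S/S TNF barcodes and 74.98% in the top 53 S/S baseline barcodes, while Rsad2 had 32.0% and 47.3%. The A/A levels lean on single barcodes. The highest A/A TNF barcode held 130 of 217 Isg15 UMIs, and the highest A/A baseline barcode 56 of 164. For Rsad2 the highest barcodes held 76 of 273 UMIs in A/A TNF and 44 of 196 in A/A baseline. Of 137 S/S TNF barcodes with at least 20 Isg15 UMIs, 87 also had at least 20 Rsad2 UMIs, compared with 23.4% of all S/S TNF barcodes. Barcodes high in Isg15 had a median of 411 genes, against 337 in the others.

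Ferritin light chain differed in A/A baseline together with its pseudogene. Ftl1 stood at 24954 in S/S TNF, 12879 in A/A TNF, 31138 in S/S baseline and 2476 in A/A baseline, and Ftl1-ps1 at 49.2 in S/S TNF, 82.4 in A/A TNF, 37.5 in S/S baseline and 3809 in A/A baseline. The same held in low-globin barcodes, where Ftl1 stood at 501 and Ftl1-ps1 at 1033 in A/A baseline, against 2828 to 5246 for Ftl1 and 6.88 to 38.4 for Ftl1-ps1 in the other 3 libraries. Reads of a gene and a near-identical pseudogene can be assigned to either, so the Ftl1 difference is uncertain.

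**Figure D4:**
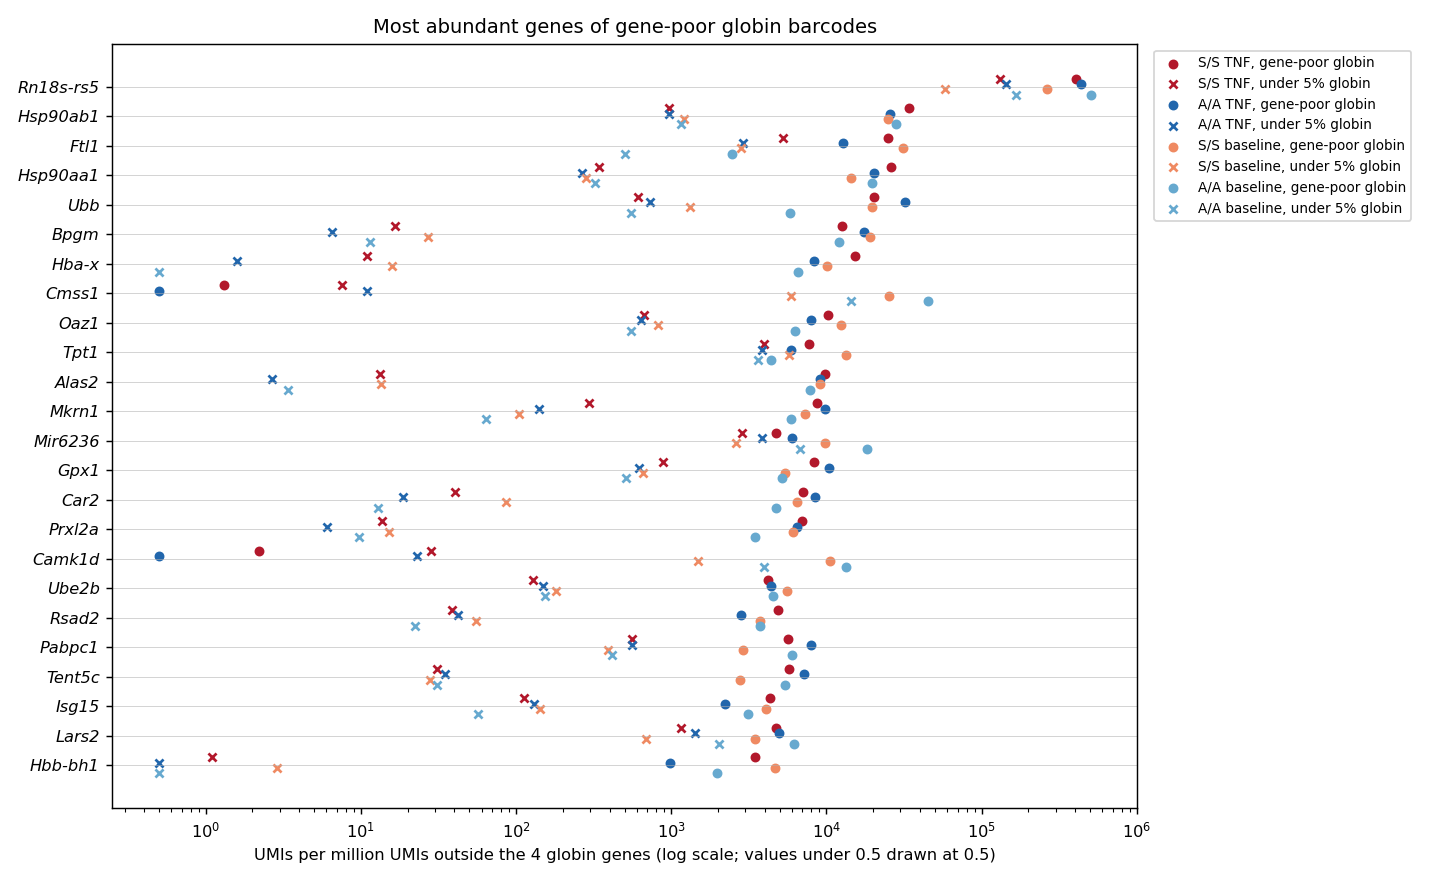
Levels of genes among the 25 most abundant outside the adult globin, mitochondrial and ribosomal protein genes, in CPM (UMIs per 1000000 UMIs outside globin) (log scale), in each library (colours) for the selected barcodes (circles) and barcodes with under 5% globin (crosses). Values near 0 are drawn at the left edge. Most circles lie to the right of the crosses of the same gene; Cmss1 and Camk1d are at or near 0 in both TNF libraries, and Ftl1 is lowest in A/A baseline at 2476.

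The comparison of S/S TNF with S/S baseline asked how the RNA of these barcodes differed after TNF, under equal limits (250 genes or more, no more than 20% mitochondrial UMIs), hence 796 and 315 barcodes. Of 2685 genes whose UMIs in both libraries summed to 20 or more, 86 (3.2%) were at least 2-fold higher and 491 (18.3%) at least 2-fold lower in S/S TNF, with a median log2 ratio of -0.34. All log2 ratios use a pseudocount of 10 CPM. The counts depend on scaling and pseudocount, at 18 to 227 genes higher and 108 to 806 lower over the alternatives tried. Lists are described by their members with at least 20 UMIs, beside that background.

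Membrane and skeleton genes stood above the background. Of 30 listed genes, 25 were tested, 23 lay above the median of all genes, and the list median was 0.22, with 5 at least 2-fold higher and 1 lower. Slc4a1 stood at 2894 in S/S TNF and 1362 in S/S baseline (log2 ratio 1.08). Epb42, protein 4.2, stood at 379 and 120 (1.58), and Tmod1, tropomodulin, at 430 and 161 (1.36). Epb41, protein 4.1, stood at 5193 and 2607 (0.99), and Kel, the Kell blood group protein, at 30.3 and 83.9 (-1.22). Aqp1, a water channel, stood at 38.7 and 6.85 (1.53), but in low-globin barcodes its log2 ratio was 3.47. The summed level of the list was higher in S/S TNF than in S/S baseline in each of the bins by genes given above. A position above the background was not particular to red cell genes. The hepatocyte markers had a median of 0.25, with 16 of 19 tested above the median of all genes, 0 at least 2-fold higher and 1 lower. The B or plasma cell markers, given below, lay under that median.

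Haem synthesis genes stayed close together in both libraries. Of 16 listed, 13 were tested and none reached 2-fold in either direction, with a median log2 ratio of -0.09. Alas2 stood at 9791 in S/S TNF and 9333 in S/S baseline (0.07), and Fech, which inserts iron into the ring, at 2530 and 1715 (0.56). Urod stood at 213 in S/S TNF and 156 in S/S baseline. Cpox and Ppox, enzymes of the last steps, were at 15.8 and 23.7 in S/S TNF and 29.1 and 44.5 in S/S baseline. Alas2 and Fech, the first and last enzymes, thus stood above the other enzymes named here in either library.

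Genes of organelle clearance included 22 of 24 listed, with a median of 0.13, 1 gene at least 2-fold higher and 0 lower. That gene was Trim10, a ligase of the erythroid lineage, at 1453 in S/S TNF and 721 in S/S baseline. Bnip3l, the mitophagy receptor of reticulocytes, stood at 3812 and 4303, Map1lc3b at 2787 and 3913, and Gabarapl2 at 2642 and 4086. The autophagy genes Map1lc3b and Gabarapl2 had log2 ratios of -0.49 and -0.63. Of 25 antioxidant and enzyme genes, 22 were tested, with a median of -0.13, 0 at least 2-fold higher and 3 lower, which were Glrx (8.35 and 68.5), Selenow (27.7 and 87.4) and Car1 (9.23 and 32.5). Of 19 glycolysis genes, 12 were tested, with a median of -0.12. Bpgm stood at 12670 in S/S TNF and 21041 in S/S baseline (-0.73).

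Heat shock and stress genes spread widely. Of 29 listed, 23 were tested, with a median of 0.55, 9 at least 2-fold higher and 2 lower. Hspa8, the constitutive chaperone that strips clathrin, stood at 2668 in S/S TNF and 1213 in S/S baseline (1.13), and Hsph1 at 658 and 283 (1.19). The median selected barcode had 0 UMIs of either gene in both libraries. Over all selected barcodes, the top 79 in S/S TNF held 77.0% of Hspa8 and 64.1% of Hsph1 UMIs, and the top 53 in S/S baseline held 89.8% and 90.4%. In low-globin barcodes both had log2 ratios on the other side, at -1.08 and -0.91. Mt1 and Mt2, metallothioneins, stood at 483 and 172 in S/S TNF and 41.1 and 6.85 in S/S baseline, but their levels in low-globin barcodes were higher, at 3368 and 1566 in S/S TNF. The mitochondrial chaperonins Hspe1 and Hspd1 were lower, at 53.6 and 18.9 in S/S TNF and 200 and 58.2 in S/S baseline. Hspa1b had 354 and 15 UMIs in these libraries (2.21), and with barcodes of under 500 genes alone its log2 ratio was -0.059.

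Genes of the NF-kB response had a low summed level. Of 40 listed, 30 were tested, with a median of 0.59, 6 at least 2-fold higher and 0 lower, and their summed level was 1000 CPM in S/S TNF and 569 in S/S baseline. Cxcl2, a neutrophil chemokine, stood at 124 in S/S TNF and 3.43 in S/S baseline, and Il1b at 96.7 and 24.0. In low-globin barcodes Cxcl2 stood at 1937 and 25.9 and Il1b at 1449 and 154 in the same libraries, so both genes were higher there than in the selected barcodes under either condition. Of 33 interferon-stimulated genes, 17 were tested, with a median of -0.71, 0 at least 2-fold higher and 7 lower. Ifi27l2a stood at 22.0 in S/S TNF and 266 in S/S baseline, and Ly6a at 8.35 and 78.8, both below their levels in low-globin barcodes of either library. Rsad2 and Isg15, at 4870 and 4317 in S/S TNF and 4355 and 4728 in S/S baseline, had log2 ratios of 0.16 and -0.13.

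Markers of other blood cells differed between these libraries as well. The tested B or plasma cell markers had a median log2 ratio of -2.05, with 6 of 7 at least 2-fold lower in S/S TNF, and the tested neutrophil markers had a median of 0.65, with 4 of 9 at least 2-fold higher. Summed levels in low-globin barcodes differed in the same directions between S/S TNF and S/S baseline, at 9614 and 15644 for B or plasma cell markers and 22336 and 3034 for neutrophil markers. Their part in the lists above was not tested. The barcodes in which 1 marker list reached 2% all did so on the hepatocyte list. Leaving them out therefore does not address the B cell and neutrophil markers. Without them, the 57 list medians of the S/S TNF over S/S baseline and S/S over A/A comparisons kept their sign.

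**Figure D5:**
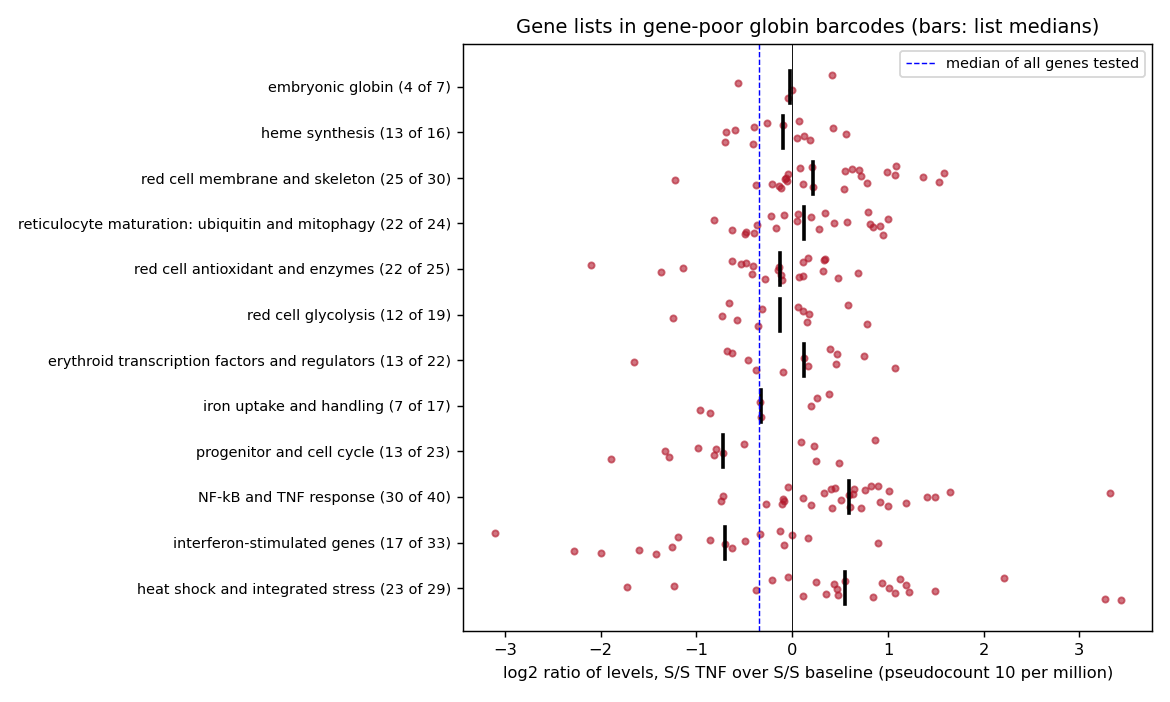
Log2 ratio of levels in S/S TNF over S/S baseline (horizontal axis, pseudocount 10 CPM) for each tested gene (points) of 12 gene lists, with list medians as black bars and the median of all 2685 genes as a dashed line at -0.34. Membrane, heat shock and NF-kB medians lie to the right of the dashed line, and interferon and cell cycle medians to its left.

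By the size rule, the 10 genes with the highest ratios in S/S TNF over S/S baseline were Hspa1b, Ranbp10, Hba-ps4, Epb42, H2-T23, Tmod1, Hectd4, Zc3hav1, Specc1 and Ppp1r15a. Ranbp10, a tubulin-associated protein of blood cells, stood at 444 and 120 in S/S TNF and S/S baseline, and Specc1 at 1373 and 565. Ppp1r15a, which reverses the stress block on translation, stood at 296 and 122. Hba-ps4, an alpha globin pseudogene, stood at 289 and 77.1, and in A/A at 474 after TNF and 838 at baseline, and its split from the adult genes is uncertain.

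The 10 genes with the lowest ratios included Cmss1, Camk1d, Gphn, Cdk8, Il31ra, 5730419F03Rik, Gm19951, Lgmn and Cyp4b1-ps2. Cmss1 had 3 UMIs in S/S TNF and 0 in A/A TNF, against 18781 in S/S baseline and 2365 in A/A baseline. Camk1d stood at 2.20 CPM in S/S TNF and 0 in A/A TNF, against 10601 in S/S baseline and 13406 in A/A baseline. Gphn and Il31ra had 0 UMIs in both TNF libraries and stood at 4858 and 3883 in S/S baseline. Cdk8 stood at 8.35 in S/S TNF and 6091 in S/S baseline. In low-globin barcodes Cmss1 was also near 0 after TNF and at 5891 in S/S baseline and 14320 in A/A baseline. The difference thus followed the library pairs that also differ in software version, in both genotypes and in other cells.

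The S/S over A/A comparison rests on few A/A barcodes. After TNF, with 796 and 37 barcodes, 337 of 2093 genes (16.1%) were at least 2-fold higher in S/S and 156 (7.45%) lower, with a median log2 ratio of 0.05. At baseline, with 531 and 20 barcodes, 655 of 1324 genes (49.5%) were at least 2-fold higher in S/S and 34 (2.57%) lower, with a median of 0.98. At baseline 311 of the 1324 genes had no UMI in 1 of the libraries, and with such genes at a floor of 3 UMIs the median was 0.39. The ribosomal share, 26.2% in S/S baseline and 50.4% in A/A baseline, moved with this comparison.

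Erythroid lists lay on both sides of the median of all genes after TNF. The median log2 ratio of the 4 tested embryonic globin genes was 1.33. For 13 haem synthesis genes it was -0.28, or -0.77 with genes without a UMI in 1 library at the floor, against -0.20 for all genes at the floor, and for 11 erythroid regulators it was -0.30. It was -0.20 for 24 membrane and skeleton genes, with 1 at least 2-fold higher and 0 lower in S/S, and -0.13 for 22 genes of organelle clearance, with 0 higher and 3 lower. For 21 antioxidant and enzyme genes it was -0.15, with 4 higher and 0 lower. With genes at the floor after TNF, the membrane median was -0.33, the clearance median -0.13 and the antioxidant median -0.15. The clearance and antioxidant medians then lay above the -0.20 of all genes. At baseline the medians of 15, 17 and 17 tested genes of these lists were 0.11, 0.33 and 0.86, each under the median of all genes. With genes at the floor, the membrane median was -0.12, the clearance median 0.33 and the antioxidant median 0.86, the last above the 0.39 of all genes. Under equal barcode limits the antioxidant median was 1.18 and that of all genes 1.09. Alas2 stood at 9791 in S/S TNF and 9029 in A/A TNF (log2 ratio 0.12), and at 9103 in S/S baseline and 7807 in A/A baseline (0.22). The pooled log2 ratio of embryonic Hbb-bh1 was 1.80 after TNF and 1.23 at baseline. Its median UMIs per barcode, which are not scaled to depth, were lower in S/S than in A/A under both conditions.

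The genes with the largest ratios by rule were mostly rare in A/A. After TNF the 5 highest were Rexo2, Hbb-y, Ifi27, Dap and H1f2, and Ifi27 stood at 478 in S/S TNF and 103 in A/A TNF. The 5 lowest were Spdl1, Rsrp1, Hspa1a, Trim56 and Gm15542, and Spdl1 had 29 UMIs in 796 S/S TNF barcodes and 61 in 37 A/A TNF barcodes. With barcodes of under 500 genes alone, the log2 ratio of Spdl1 was 1.35, so its direction rests on barcodes with more genes. At baseline the 5 highest included mt-Atp8, Hbb-y, Gm32051 and Mgst3. Of these, mt-Atp8, Hbb-y and Gm32051 had 0 UMIs in A/A. The 5 lowest were Ftl1-ps1, Hba-ps4, Kdm7a, Ptpn14 and Skp1. Prdx2 stood at 1823 in S/S baseline and 362 in A/A baseline, while Slc4a1 stood at 1116 and 1980.

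Against gene-rich globin barcodes of the same library, the selected barcodes were poor in nuclear-stage transcripts. The choice used genes per barcode, so these ratios are a description. In S/S TNF 32 of 4049 genes (0.79%) were at least 2-fold higher in the selected barcodes and 2828 (69.8%) lower, and in S/S baseline 71 of 2552 (2.78%) were higher and 1579 (61.9%) lower. The lowest ratios shared by both libraries were of replication histone genes, the erythroblast factor Hemgn and the haem enzyme Alad, within a set of H2ac24, H4c4, H1f5, Hemgn, H2ac8, Alad, H3c3, H1f4, Ubac1 and Gch1. H2ac24 stood at 23.3 in selected and 3262 in gene-rich S/S TNF barcodes, and at 63.0 and 2235 in S/S baseline. Alas2 was higher in the selected barcodes, at 9791 in selected and 4388 in gene-rich S/S TNF barcodes, and at 9103 and 4001 in S/S baseline.

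The highest ratios shared by both S/S libraries included those of Snhg1, Cacybp, Prxl2a, Bpgm, Ubb, Ccndbp1, Hbq1a, Hsp90aa1 and Sin3b. Bpgm stood at 12670 in selected and 4683 in gene-rich S/S TNF barcodes, and at 19052 and 6368 in S/S baseline. Hsp90aa1 stood at 26054 and 11170 in S/S TNF and at 14361 and 2868 in S/S baseline. Of the 23 cell cycle genes listed, 21 were tested in S/S TNF and all 21 were at least 2-fold lower in the selected barcodes, with 20 tested and 19 lower in S/S baseline. Of 24 organelle clearance genes, 22 were tested, with 3 higher and 7 lower in S/S TNF and 5 higher and 11 lower in S/S baseline. Neutrophil markers summed to 913 CPM in the selected S/S TNF barcodes and 19672 in the gene-rich ones, and to 387 and 236 in S/S baseline, and the part of those cells in the ratios was not tested.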

How the data were processed

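The deposited values are raw UMI counts from Cell Ranger, 6.1.2 after TNF and 7.1.0 at baseline per the file headers, on mm39, and no further cell filter was applied to them. Whether introns were counted is not given in the sources used here. The libraries held 54999906, 53556431, 30724027 and 21088801 UMIs (S/S TNF, A/A TNF, S/S baseline, A/A baseline). Genes were matched by symbol: of 428 listed genes, 423 were used, 3 were not matched and 2 had a shared symbol. Doublets were not called. UMIs were summed over barcodes per library and scaled per 1000000 UMIs outside the 4 globin genes. Log2 ratios took a pseudocount of 10 and genes whose UMIs summed to 20 or more over both libraries, and 2-fold was the size limit. Intervals are exact binomial (Clopper-Pearson), cover counting error only and leave out differences between mice. The ratio calculation was tested on simulated counts. Members and lists were chosen with earlier results of these data known.

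Genes were named by fixed rules of size. These were the 25 highest levels in S/S, and the 10 highest and 10 lowest ratios for S/S TNF over S/S baseline (at least 100 UMIs, a level of at least 100, no lower than in low-globin barcodes in the library where the gene was higher). They were also the 5 highest and 5 lowest for S/S over A/A (at least 50 UMIs), the 10 highest and lowest over gene-rich barcodes, and list members. Epb41, Bnip3l, Hspa8, Hsph1 and Hspd1, and Slc4a1, Prdx2, Tfrc, Urod, Map1lc3b and Gabarapl2 outside the comparison that names them, were chosen after their values were seen. Alternatives changed the globin and gene limits, the barcode limits, the scaling, the pseudocount, the UMI minimum, thinning to 500 UMIs per barcode, mixed barcodes and shared cell barcodes. Calculations ran in Python 3.11.15 with pandas 2.3.3, scipy 1.17.1 and numpy 2.4.6, and plots in matplotlib 3.10.9. Some genes that these rules name are not reported here.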

Additional observations from a re-analysis of the deposited data

Results flagged for a closer look

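Some measures of the selected barcodes differed between TNF and baseline in one direction in S/S and in the other in A/A, with 1 library per group, so the difference between genotypes was not tested. The share of selected barcodes over all barcodes changed by 2.96 percentage points in S/S and -0.05 in A/A (TNF minus baseline), but under equal barcode limits the ratio of the TNF share to the baseline share was 1.95 in S/S and 1.48 in A/A. The pooled globin share, which the choice of barcodes used and which is given as a description only, changed by -6.35 percentage points in S/S and 11.4 in A/A. The ribosomal RNA share of UMIs outside globin changed by 14.5 in S/S and -6.96 in A/A, the mitochondrial share by -3.96 and 0.628, and the ribosomal protein share by -3.64 and 0.834. Low-globin barcodes showed the same opposite directions in the ribosomal RNA share, at 13.2% in S/S TNF and 5.85% in S/S baseline but 14.3% in A/A TNF and 16.7% in A/A baseline. Their ribosomal protein share did so too, at 12.5% in S/S TNF and 18.3% in S/S baseline but 12.9% in A/A TNF and 12.2% in A/A baseline. Hba-x as a percent of alpha-class UMIs changed by 0.737 in S/S and -0.397 in A/A, and Hbb-bh1 as a percent of beta-class UMIs by 0.457 and -0.321. These directions depend on the adult globin denominator. The A/A direction of Hba-x also leans on 1 barcode, which held 171 of the 342 Hba-x UMIs of the 20 A/A baseline barcodes. In counts per 1000000 UMIs outside globin, Hbb-bh1 was lower after TNF in both genotypes. It stood at 3472 in S/S TNF and 4661 in S/S baseline, and at 988 in A/A TNF and 1980 in A/A baseline. Hba-x was higher in both, at 15205 in S/S TNF and 10102 in S/S baseline, and 8360 in A/A TNF and 6513 in A/A baseline. The median log2 ratio of all genes in S/S TNF over S/S baseline was also negative, at -0.34 under equal limits.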

How the results depend on the processing

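No paired analysis was possible because each group had 1 library, so no replicate could be left out and no test was run. The limits are 1 library of 2 pooled mice per group, 37 and 20 selected barcodes in A/A TNF and A/A baseline, and a software version that differs with treatment. Counts of genes past 2-fold depended on scaling, pseudocount and UMI minimum, and the cause was not tested. List medians kept their sign in 57 of 57 cases without mixed barcodes and 57 with a pseudocount of 1, 56 without shared cell barcodes and 56 with a pseudocount of 50, 55 at 10% globin, 54 at 40%, 50 with the narrower scaling, 50 under 1000 genes, 49 with a minimum of 1 UMI and 48 scaled to all UMIs. They did so in 54 of 56 with the other barcode limits, 44 of 54 under 500 genes and 35 of 43 thinned. Gene-rich barcodes were not compared under the limit of 1000 genes.

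With a globin limit of 10%, 89 genes were at least 2-fold higher and 4480 lower over gene-rich barcodes in S/S TNF, and 3280 lower in S/S baseline. With 40%, the S/S TNF share was 11.8%, 69 genes were lower in S/S over A/A at baseline, and over gene-rich barcodes 167 were higher and 940 lower in S/S TNF and 177 and 406 in S/S baseline. Under 500 genes, the shares were 12.1% in S/S TNF and 9.45% in S/S baseline, and 3 and 21 genes were higher over gene-rich barcodes. With the other barcode limits, the S/S baseline share was 6.98%, the ratio of median UMIs 1.42 and the alpha difference 11.9 points.

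For S/S TNF over S/S baseline, scaling to all UMIs gave 57 genes higher and 215 lower, scaling without globin, mitochondrial and ribosomal genes 227 higher, a pseudocount of 1 225 and 806, a pseudocount of 50 18 and 108, a minimum of 1 UMI 773 lower, and thinning to 500 UMIs 169 lower. For S/S over A/A at baseline, scaling to all UMIs gave 58 lower, the narrower scaling 97 lower, a pseudocount of 50 305 and 19, a minimum of 1 UMI 1794 and 585, and thinning 281 higher. For S/S over A/A after TNF, scaling to all UMIs gave 147 and 38, a pseudocount of 1 513 and 293, of 50 33 and 20, a minimum of 1 UMI 597 lower, and thinning 145 and 78. Over gene-rich barcodes, scaling to all UMIs gave 8 higher in S/S TNF and 22 in S/S baseline, the narrower scaling 132 and 130, a pseudocount of 1 58 higher in S/S TNF, of 50 859 and 877 lower, a minimum of 1 UMI 3586 lower in S/S baseline, and thinning 60 higher and 370 lower in S/S TNF and 268 lower in S/S baseline.

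Single log2 ratios changed sign for Hspa1b (-0.065 at 40% globin and -0.059 under 500 genes), Ptpn14 (2.67 at 40%), Spdl1 (1.35 at 40% and 1.35 under 500 genes), Hspa1a (0.053 at 40%), Gm15542 (0.59 under 500 genes) and Skp1 (2.94 thinned). The B or plasma cell marker median in S/S over A/A after TNF was 0.062 with a minimum of 1 UMI. Scaling to all UMIs moved the median of all genes to -0.18 for S/S TNF over S/S baseline, 0.65 for S/S over A/A at baseline and 0.17 after TNF.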
